A study of Mus musculus with 20 samples.

Results

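The genes described here are the glucocorticoid receptor gene Nr3c1 and 9 genes known to be induced by glucocorticoids outside the circadian clock, Fkbp5, Zbtb16, Tsc22d3, Sgk1, Klf9, Mt1, Mt2, Cdkn1a and Ddit4. They were found by matching Ensembl gene identifiers to these symbols, and all 10 were among the 54532 genes of the count table. All but Mt2, 9 in number, had enough reads to enter the fit over 15543 genes. The genes were chosen by their known link to the hormone with their measured difference between BAPN and water, in CPM and log2 fold, already in view, so their differences between BAPN and water are given as a description. They carry no p-value here, and a count of those called stands only beside the share over all genes.

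The study sequenced RNA from aortas of C57BL/6J mice that received water or BAPN, β-aminopropionitrile, an inhibitor of the collagen and elastin cross-linking enzyme lysyl oxidase, for 1 week. The ascending and the descending aorta were profiled under each treatment, with 5 libraries in each of 4 groups, 20 in all, numbered 1 to 5 within a group. The labels name no engineered allele, and age, sex, dose and the time of day of collection are not given in the sources used here. The labels do not say whether libraries are separate animals or pools, or whether equal numbers mark the same animal, so p-values measure only the spread between these libraries.

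The glucocorticoid receptor is a nuclear receptor that waits in the cytosol on chaperones of the HSP90 family until corticosterone binds it. It then enters the nucleus, binds paired short sites in DNA as a dimer, and raises or lowers transcription of nearby genes. Circulating corticosterone follows a daily rhythm and rises with stress, and several receptor targets follow both. In the vessel wall the receptor acts in smooth muscle, endothelium and fibroblasts, where it affects tone, inflammation and matrix.

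Library totals ran from 15744725 to 23292294 counted reads. Levels below are in CPM, counts scaled to a common library size with TMM factors, and comparisons between genes use CPM per kilobase of exon. Summed marker levels are the exception, given in CPM of the raw library total without TMM factors. The 6 smooth muscle markers were detected in every group, with a summed level of 18851 to 24529 CPM over all libraries, as the tissue label calls for. The summed marker level was higher under BAPN without overlap, at 22739 to 24529 against 19414 to 21071 CPM in ascending aorta and 21646 to 23634 against 18851 to 20635 CPM in descending aorta, although only Acta2 of the 6 markers passed the test, a gene named after its value was seen. The levels of 33 pseudogenes split the libraries into 2 sets, with a gap of 1.73 on their first principal component against at most 0.506 within a set. Libraries 4 and 5 of ascending water, libraries 1, 2 and 5 of descending water and every library of ascending BAPN form the higher set, and the others the lower set. No label explains the split. Values within a set are given below for part of the comparisons that they move or end, so a call without them need not hold within a set.

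A sequence that matches the receptor's known element was found at the serum- and glucocorticoid-regulated kinase gene Sgk1, and is printed as the only full match among these genes. RefSeq promoter windows on GRCm38.p6, which run from 250 bases before to 50 bases after each annotated start, matched 8 of the 10 genes and gave 16 windows, 6 of them for Sgk1. The full response element was searched on both strands as AGAACA or GGAACA, then 3 bases of any kind, then TGTTCT. It occurred in 11 of 32851 mouse windows, or 0.0335%, and in 1 of the 16 windows. The 250 bases of that window before the start, printed here, lie at chr10:21993640-21993889 on the plus strand. They precede 1 of the 6 Sgk1 starts and lie inside the annotated locus (chromosome 10, 21882184 to 21999903). The element, in capitals, begins 189 bases before the start.
Sgk1: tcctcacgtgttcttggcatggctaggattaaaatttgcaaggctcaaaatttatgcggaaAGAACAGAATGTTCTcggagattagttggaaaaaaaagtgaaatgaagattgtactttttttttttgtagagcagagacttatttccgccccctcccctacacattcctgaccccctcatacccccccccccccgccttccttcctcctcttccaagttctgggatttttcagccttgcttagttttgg
The capitals hold a left arm, a spacer and a mirrored right arm, the layout known for sites of a receptor dimer. A single arm, AGAACA or GGAACA on either strand, was found in 31.3% of all windows and in 8 of the 16, belonging to Sgk1, Tsc22d3, Mt1 and Cdkn1a. These matches describe letters in short windows and say nothing of binding.

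Nr3c1 (chromosome 18, 39410545 to 39519421 on the minus strand of GRCm38) encodes the receptor itself. In ascending aorta its level was 238.8, 220.3, 230.3, 224.0 and 233.5 CPM in water libraries 1 to 5 and 215.2, 226.2, 227.2, 212.3 and 219.3 CPM in the BAPN libraries. In descending aorta it was 266.4, 257.2, 250.04, 252.5 and 276.0 CPM under water and 253.5, 226.5, 229.7, 250.7 and 257.2 CPM under BAPN. Treatment groups overlapped in both regions, and the log2 difference, BAPN minus water, was -0.060 ± 0.042 (SE, n = 5 per group) in ascending and -0.097 ± 0.041 in descending aorta. Over all 20 libraries the receptor transcript ran from 212.3 to 276.0 CPM.

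Fkbp5 (chromosome 17, 28399094 to 28517527) encodes FKBP51, a co-chaperone that lowers the receptor's affinity for hormone and so closes a feedback loop. In ascending aorta it stood at 25.6, 22.7, 20.5, 24.9 and 23.1 CPM under water and at 46.6, 37.6, 55.5, 47.0 and 43.2 CPM under BAPN. In descending aorta the water libraries held 26.0, 20.6, 19.8, 24.3 and 23.25 CPM and the BAPN libraries 43.4, 33.8, 49.97, 41.8 and 42.8 CPM. Every BAPN library was above every water library in both regions. The log2 difference was 0.98 ± 0.098 (SE, n = 5 per group), or 1.97-fold, in ascending aorta and 0.89 ± 0.10, or 1.86-fold, in descending aorta.

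Zbtb16 (chromosome 9, 48654297 to 48836222) encodes PLZF, a zinc-finger transcription repressor. Its ascending levels were 26.0, 33.6, 23.4, 23.0 and 26.0 CPM under water and 60.5, 57.2, 90.3, 68.7 and 65.9 CPM under BAPN. Its descending levels were 22.3, 35.8, 19.5, 26.3 and 21.2 CPM under water and 62.1, 59.7, 87.6, 69.7 and 64.1 CPM under BAPN. The groups were fully apart in both regions, with the number 2 library highest under water and the number 3 library highest under BAPN in each. The difference, 1.38 ± 0.14 on the log2 scale (SE, n = 5 per group), or 2.61-fold, in ascending and 1.46 ± 0.14, or 2.75-fold, in descending aorta, was the widest of the 9 genes.

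Cdkn1a (chromosome 17, 29090976 to 29100727) encodes p21, a cyclin-dependent kinase inhibitor that p53 also induces. Ascending libraries held 71.2, 73.3, 78.7, 75.8 and 69.5 CPM under water and 95.8, 95.4, 99.6, 95.6 and 85.1 CPM under BAPN. Descending libraries held 41.6, 43.0, 49.0, 49.7 and 42.8 CPM under water and 63.3, 68.0, 66.5, 65.1 and 52.98 CPM under BAPN. The treatment groups did not overlap in either region, and the difference was smaller than for Fkbp5 and Zbtb16, at 0.36 ± 0.062 (SE, n = 5 per group), or 1.28-fold, and 0.48 ± 0.064, or 1.40-fold. An annotated transcript on the other strand covers 7.68% of Cdkn1a's exon bases, and whether counting used strand is not given in the sources used here.

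**Figure D1:**
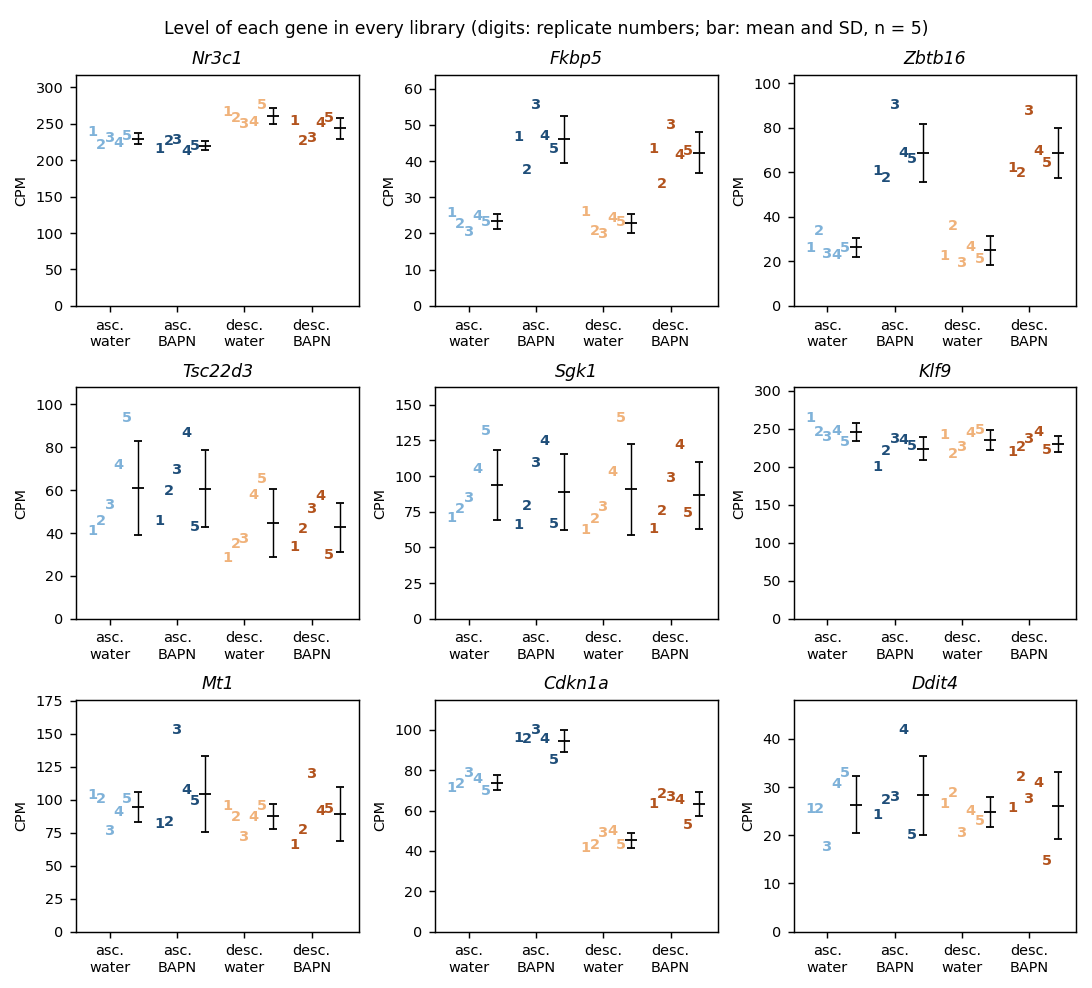
Level of each of the 9 measured genes in CPM (vertical axes, from 0) in the 4 groups. Each digit is 1 library, placed by its replicate number, and the bar to its right is the mean with SD over 5 libraries. For Fkbp5, Zbtb16 and Cdkn1a the BAPN libraries lie above the water libraries of the same region, while for Tsc22d3 and Sgk1 the libraries within each group are widely spread.

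The other 6 measured genes overlapped between treatments in both regions. Tsc22d3 (chromosome X, 140539528 to 140600659) encodes GILZ, an anti-inflammatory leucine zipper protein. It was at 41.0, 45.4, 53.3, 71.8 and 93.8 CPM in ascending water, 45.4, 59.7, 69.5, 86.4 and 42.7 CPM in ascending BAPN, 28.5, 34.7, 37.4, 57.8 and 65.1 CPM in descending water and 33.6, 41.7, 51.0, 57.3 and 29.9 CPM in descending BAPN libraries. The range within a group exceeded the distance between group means, and the log2 differences were -0.0055 ± 0.23 and -0.068 ± 0.24 (SE, n = 5 per group). Its 2 highest ascending water libraries, 4 and 5, are the ones of that group in the higher set. In descending water the higher set held the 2 lowest libraries, 1 and 2, as well as the highest, 5.

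Sgk1, a kinase that regulates sodium channels and other transporters, was at 70.6, 77.3, 84.6, 104.9 and 131.8 CPM in ascending water and 65.9, 79.3, 109.2, 124.4 and 66.2 CPM in ascending BAPN. In descending aorta it was at 62.1, 70.03, 78.2, 103.0 and 141.1 CPM under water and 62.8, 75.6, 98.5, 121.5 and 73.9 CPM under BAPN. The highest library of each group was the same number as for Tsc22d3, number 5 under water and number 4 under BAPN. Its differences by treatment were -0.074 ± 0.22 and -0.070 ± 0.22 on the log2 scale (SE, n = 5 per group).

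Klf9, a Krüppel-like transcription factor that responds to glucocorticoid and thyroid hormone, ranged from 200.3 to 264.7 CPM over all 20 libraries. Its log2 differences were -0.14 ± 0.049 in ascending and -0.035 ± 0.049 in descending aorta (SE, n = 5 per group). Ddit4, whose protein REDD1 restrains mTORC1, ranged from 14.7 CPM in descending BAPN 5 to 41.8 CPM in ascending BAPN 4, with differences of 0.11 ± 0.18 and 0.074 ± 0.19. Neither gene's groups separated by treatment.

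Mt1 encodes metallothionein 1, a zinc- and copper-binding protein. It was at 103.6, 100.8, 76.1, 91.0 and 100.4 CPM in ascending water and 81.3, 82.8, 152.5, 107.2 and 99.1 CPM in ascending BAPN. In descending aorta it was at 95.6, 87.0, 72.1, 86.8 and 95.2 CPM under water and 65.4, 76.7, 119.9, 91.8 and 93.2 CPM under BAPN. The number 3 libraries were the lowest under water and the highest under BAPN in both regions, and the groups overlapped, with log2 differences of 0.15 ± 0.15 and 0.034 ± 0.15 (SE, n = 5 per group).

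Mt2, the neighbouring metallothionein gene (chromosome 8, 94172664 to 94173568, plus strand), had almost no counted reads. Its counts were 0, 4, 5, 5 and 1 in ascending water, 1, 8, 5, 4 and 7 in ascending BAPN, 2, 0, 2, 1 and 2 in descending water and 0, 0, 9, 2 and 0 in descending BAPN libraries, 58 in total. The gene Gm45774 on the other strand (94170748 to 94173412) covers 432 of Mt2's 588 exon bases, or 73.5%, and itself had 38 counts. Of the 100 protein-coding genes with at least 70 percent of their exon bases under an opposite-strand exon, 78% had fewer than 100 counts over all libraries, against 40.9% of the 16640 with none. Whether reads of Mt2 were lost to this overlap was not tested, and no fold is given. The stretches before both starts show the metal-response element core, TGCACNC or TGCGCNC on either strand, in capitals, a motif found in 25.7% of all windows. Both are on the plus strand of GRCm38.p6, chr8:94178839-94179088 for Mt1 and chr8:94172368-94172617 for Mt2.
Mt1: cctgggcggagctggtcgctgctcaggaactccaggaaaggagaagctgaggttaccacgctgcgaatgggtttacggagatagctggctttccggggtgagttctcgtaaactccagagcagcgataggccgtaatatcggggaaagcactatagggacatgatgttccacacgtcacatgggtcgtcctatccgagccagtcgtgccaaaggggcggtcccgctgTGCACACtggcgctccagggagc
Mt2: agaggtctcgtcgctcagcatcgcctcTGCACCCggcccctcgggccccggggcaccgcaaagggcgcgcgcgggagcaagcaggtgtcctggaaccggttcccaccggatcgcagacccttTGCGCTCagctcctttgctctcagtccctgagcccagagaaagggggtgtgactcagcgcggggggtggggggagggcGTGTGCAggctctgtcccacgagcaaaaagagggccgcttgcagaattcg
Mt1 had 1 match, beginning 23 bases before its start, and Mt2 had 3, beginning 223, 128 and 50 bases before its start. Counted over the whole windows of 300 bases, to which the background refers, Mt1 had 3 matches and Mt2 had 4, the further ones lying at or after the start. Neither window held the full glucocorticoid element.

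Of the 9 measured genes, 3 (Fkbp5, Zbtb16 and Cdkn1a) were higher under BAPN at an adjusted p below 0.05 in edgeR's quasi-likelihood fit and 0 were lower, in ascending and in descending aorta alike. Over all tested genes, 6.34% were called in ascending aorta (3.44% higher and 2.91% lower) and 10.7% in descending aorta (6.18% higher and 4.54% lower), and 4.20% and 4.10% had all BAPN libraries above all water libraries. These counts use the contrast that was in view when the genes were chosen, and nothing is read from them. The descending calls over all genes were 961 higher and 706 lower, and 706 higher and 874 lower with upper-quartile scaling. The median log2 difference of the 9 genes was 0.11 in ascending and 0.034 in descending aorta, beside -0.0051 and -0.00027 over all genes.

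Within the higher set alone, the ascending difference by treatment was 0.94 for Fkbp5, 1.49 for Zbtb16 and 0.38 for Cdkn1a. Within the lower set, the descending difference was 0.93, 1.58 and 0.35 in the same order, and Cdkn1a was not called there. Among the genes whose groups overlapped, Tsc22d3 differed by -0.45 ± 0.20, Sgk1 by -0.41 ± 0.20 and Ddit4 by -0.17 ± 0.19 (SE) in ascending aorta within the higher set. These values lay further from 0 than in the full fit and, for Ddit4, on its other side. The water group then held only libraries 4 and 5 in ascending aorta, and only 3 and 4 in descending aorta within the lower set. In descending aorta within the lower set Tsc22d3, Sgk1 and Ddit4 differed by -0.17 ± 0.21, -0.074 ± 0.19 and 0.19 ± 0.22 (SE).

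**Figure D2:**
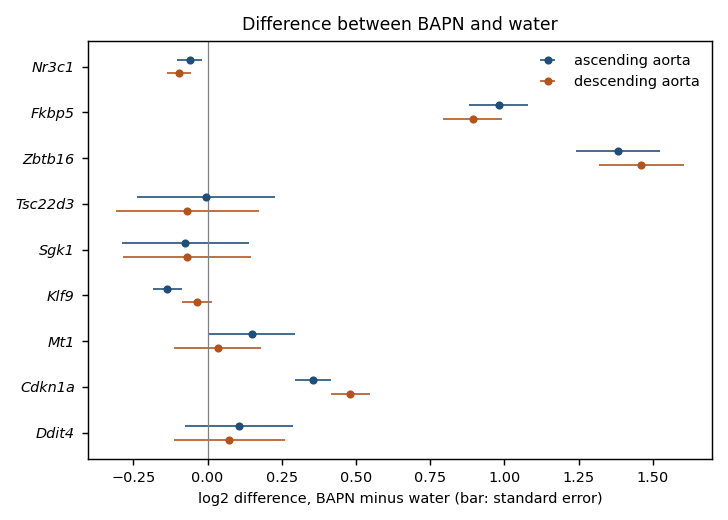
Log2 difference between BAPN and water (horizontal axis) with its standard error for the 9 genes in ascending (blue) and descending (brown) aorta, from the fit over all 20 libraries. Zbtb16, Fkbp5 and Cdkn1a lie to the right of 0 in both regions, and the bars of Tsc22d3, Sgk1, Klf9, Mt1 and Ddit4 cross 0 in at least 1 region.

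The 2 treatments also differed in clock genes, some of which the receptor is known to regulate. Of 17 clock genes, 5 were higher and 10 lower under BAPN in each region. Over all genes, 3.44% were higher and 2.91% lower in ascending aorta, and 6.18% and 4.54% in descending aorta. Arntl, a core activator, differed by 2.19 ± 0.16 and 1.92 ± 0.16, and Dbp, an output gene, by -2.39 ± 0.15 and -2.27 ± 0.15 (log2, SE, n = 5 per group). Per1, a clock gene with a known receptor site, differed by -0.46 ± 0.15 and -0.35 ± 0.16, with edgeR adjusted p = 0.0766 and 0.163. Nr1d1 differed by -0.53 ± 0.13 and -0.47 ± 0.14, with edgeR adjusted p = 0.0171 and 0.024, and within a set was -0.24 (higher set, ascending, adjusted p = 0.359) and -0.39 (lower set, descending, adjusted p = 0.132). It lost its call without any 1 of ascending water 1 or 2 or ascending BAPN 4 (adjusted p 0.0526 to 0.0593) and without any 1 of descending water 1 or 2 or descending BAPN 1, 3 or 4 (0.0562 to 0.0776). These 4 genes were chosen with their values known, and their part in the differences of Fkbp5, Zbtb16 and Cdkn1a was not tested.

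Per kilobase of exon, Mt1 was the most abundant of the 9 genes in ascending water, at 75.7 ± 9.02 CPM per kilobase (SD, n = 5). Klf9 followed at 51.1 ± 2.47, Nr3c1 at 29.8 ± 0.96, Cdkn1a at 20.7 ± 1.03, Sgk1 at 19.1 ± 5.07 and Tsc22d3 at 14.1 ± 5.01, with Ddit4 between the last 2. Zbtb16, at 4.99 ± 0.81, and Fkbp5, at 2.47 ± 0.212, were the least abundant. Cdkn1a and Sgk1, and likewise Sgk1, Ddit4 and Tsc22d3, did not differ beyond their spread. The genes with the widest differences by treatment were thus the 2 lowest ones under water.

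Between regions, a contrast other than the one in view when the genes were chosen, although it uses the same libraries, 2 of the 9 were called under water: Nr3c1 was higher and Cdkn1a lower in descending aorta. Over all genes 27.3% were called, 12.1% higher and 15.2% lower, so a count of 2 of 9 is near that background. Under BAPN the same 2 genes were called in the same directions, beside 29.8% of all genes, 14.2% higher and 15.6% lower. In bulk tissue, fewer cells of a type and less RNA per cell cannot be told apart.

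Nr3c1 was higher in descending than in ascending aorta by 0.18 ± 0.041 under water, with no overlap of the libraries (edgeR adjusted p = 0.0012), and by 0.15 ± 0.042 under BAPN, where the libraries overlapped (edgeR adjusted p = 0.00812). These are 1.14-fold and 1.11-fold. Within the lower set the difference under water was 0.13 with edgeR adjusted p = 0.178, and within the higher set 0.21 with adjusted p = 0.0404. Cdkn1a was lower by 0.71 ± 0.064 on the log2 scale under water, 1.63-fold, and by 0.58 ± 0.063 under BAPN, 1.49-fold, with no overlap in either (edgeR adjusted p = 1.89e-09 and 4.73e-08). Cdkn1a kept its call in both sets under water, and under BAPN the region and the set cannot be told apart, since all ascending libraries are in one and all descending libraries in the other.

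Markers of neighbouring tissue moved with the region. All 6 cardiomyocyte markers were lower in descending aorta, with a summed level of 383 to 960 CPM in ascending and 11.2 to 15.7 CPM in descending water libraries. All 4 mesothelial markers were lower too, from 191 to 346 against 0.949 to 9.52 CPM. Of 6 adipocyte markers 4 were higher, from 24.9 to 82.5 against 101 to 217 CPM, and of 5 fibroblast markers 3 were lower and 1 higher, from 2087 to 2393 against 1495 to 1685 CPM. Under water 1 of 5 endothelial markers was higher and 1 lower, and 2 of 3 measured T cell markers were lower. Of 6 macrophage markers 1 was higher, and 0 of 6 smooth muscle markers were called, beside 27.3% of all genes. No marker of these lists was at 0 in a whole group, and their part in the regional differences of Nr3c1 and Cdkn1a was not tested. Under BAPN in ascending aorta all 6 cardiomyocyte markers had a positive log2 difference from water, with a median of 0.421, beside -0.00507 over all genes. Their summed level was 635 to 1206 CPM under BAPN and 383 to 960 CPM under water, with overlap. In descending aorta 2 were positive and 4 negative. Only Tnnt2 in ascending aorta, named after its value was seen, was called, higher by 0.43 ± 0.12 (edgeR adjusted p = 0.0387). The part of these markers in the differences by treatment was not tested.

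The other 7 measured genes were not called between regions. Tsc22d3 had the widest such difference, -0.45 ± 0.24 under water (edgeR adjusted p = 0.169, 95% interval -0.95 to 0.048) and -0.51 ± 0.24 under BAPN (adjusted p = 0.111, interval -1.02 to -0.0099). Under water it was -0.97 with adjusted p = 0.0206 within the higher set and 0.029 with adjusted p = 0.933 within the lower set. With no filter on low counts its edgeR adjusted p was 0.0172 under water and 0.00628 under BAPN, and with only the groups compared it was 0.0444 under BAPN. With the library set as a term the difference under BAPN was -0.16 (adjusted p = 0.82). Fkbp5 differed by -0.033 and -0.12 and Zbtb16 by -0.078 and 0.00025 between regions, under water and BAPN in turn.

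The difference by treatment was also compared between regions, as an interaction in the same fit. None of the 9 genes was called, and 0 were below an unadjusted p of 0.05. Over all genes edgeR called 0, or 0%, with 1070 (6.88%) below an unadjusted p of 0.05, while DESeq2 called 1 higher and 13 lower and limma-voom 0. The difference of differences, descending minus ascending, was -0.088 (95% interval -0.38 to 0.21) for Fkbp5, 0.078 (-0.35 to 0.51) for Zbtb16 and 0.13 (-0.063 to 0.32) for Cdkn1a. For Sgk1 the interval was -0.64 to 0.65 and for Tsc22d3 -0.77 to 0.65, so sizes up to these bounds are not excluded by these libraries.

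Spread within groups was examined next, on log2 CPM after subtracting each group's mean, a quantity from which the difference by treatment is removed. Tsc22d3 and Sgk1 varied together over the 20 libraries (r = 0.957). Fkbp5 and Mt1 had r = 0.703, Zbtb16 and Mt1 0.649, Klf9 and Mt1 0.603, and Tsc22d3 and Ddit4 0.55. Fkbp5 and Zbtb16, the genes with the widest treatment differences, had r = 0.381 with each other, and Fkbp5 had 0.133 with Tsc22d3 and 0.23 with Sgk1. Nr3c1 was near 0 with most of the others and had r = -0.562 with Cdkn1a. These are descriptions over libraries that share depth and processing, and no p is given.

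**Figure D3:**
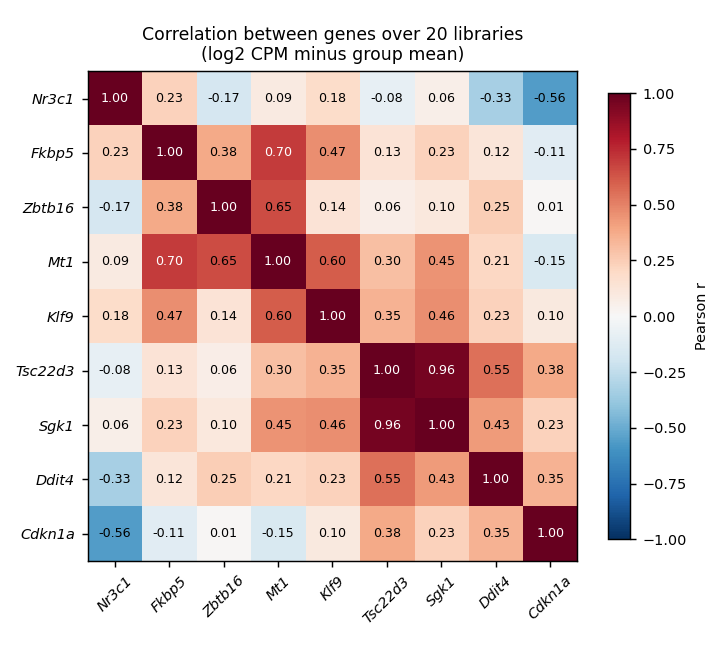
Pearson r between pairs of the 9 genes over 20 libraries, on log2 CPM minus the group mean (color scale from -1, blue, to 1, red). Tsc22d3 and Sgk1 form the strongest pair (0.957), Mt1 is positive with Fkbp5, Zbtb16 and Klf9, and Nr3c1 with Cdkn1a is the lowest (-0.562).

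The library of a given number in ascending aorta was then set against the library of that treatment and number in descending aorta, 10 pairs in all, a comparison chosen after the values were seen. For Tsc22d3 the deviations from the group mean had the same sign in 10 of 10 pairs, with Pearson r = 0.984 (exact permutation test within treatment, two-sided, p = 6.94e-05) and Spearman rho = 1 (p = 6.94e-05), and r = 0.985 without the 2 pairs farthest from the median. For Sgk1 the sign was shared in 10 of 10 pairs, with r = 0.966 (exact permutation p = 6.94e-05), rho = 0.915 (p = 6.94e-05) and r = 0.933 without 2 pairs. The p of 6.94e-05 is the smallest that 14400 regroupings can give. After Benjamini-Hochberg adjustment over 15543 genes it became 0.144 for both, 0 genes were called, and the comparison does not pass this correction. Over 15543 genes, a gene at the smallest p can pass only if many others reach it too. The correction thus cannot decide for a single gene. The median r over all genes was 0.103, and 15 genes, or 0.0965%, had an r at least that of Sgk1.

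Other genes of the group followed their number to different degrees. Mt1 had r = 0.95 and rho = 0.915 (exact permutation p = 0.000833 and 0.00132, adjusted p of r 0.199), Fkbp5 r = 0.938 and rho = 0.903 (p = 0.00167 and 0.00292, adjusted 0.229) and Cdkn1a r = 0.907 and rho = 0.855 (p = 0.00882 and 0.0134, adjusted 0.402). Without the 2 farthest pairs these r were 0.919, 0.855 and 0.799. Zbtb16 had r = 0.831 and rho = 0.503 (exact permutation p = 0.0134 and 0.131, adjusted p of r 0.451), which rested on 2 pairs, since r was 0.168 without them. Ddit4 had r = 0.617 and rho = 0.503 (p = 0.109 and 0.157, permutation), Klf9 0.414 and 0.37 (p = 0.245 and 0.326) and Nr3c1 -0.237 and -0.248 (p = 0.515 and 0.501). The genes with the widest spread within groups, Tsc22d3 and Sgk1, thus had the highest r, and the receptor gene the lowest.

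**Figure D4:**
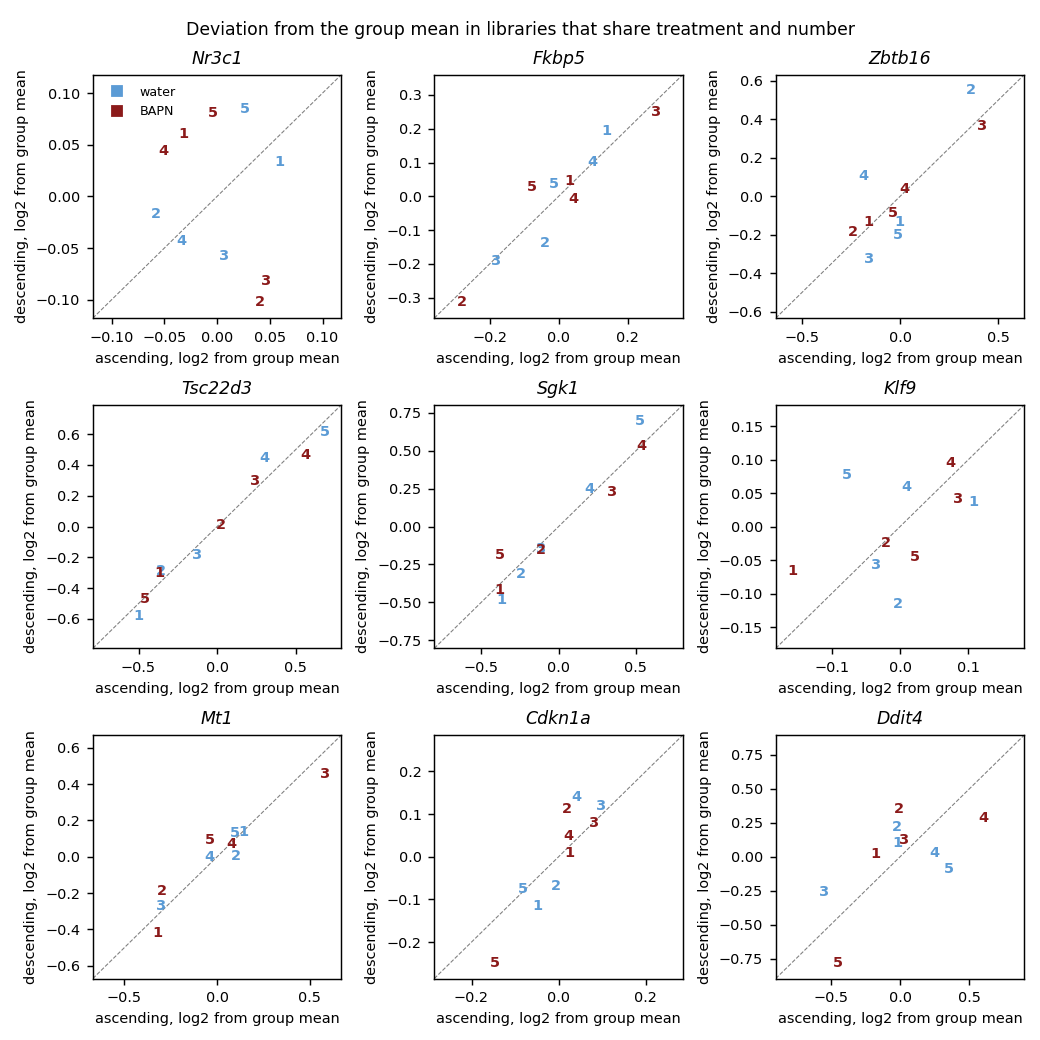
Deviation from the group mean (log2 CPM) in the ascending library (horizontal axis) and in the descending library of the same treatment and number (vertical axis), for 9 genes. Digits are library numbers, blue for water and red for BAPN, and the dashed line marks equal values. Tsc22d3 and Sgk1 lie along the line (r = 0.984 and 0.966), and Nr3c1 does not (r = -0.237).

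By the same measure of within-group spread, the genes most like Fkbp5 among 10663 (mean level 5 CPM or more) were Galnt15 (r = 0.851), Pcnt (0.81), Pibf1 (0.779), Psmd4 (0.739), Fam107a (0.729) and Tle1 (0.724), over 20 libraries. Fam107a is itself a known glucocorticoid-induced gene. Among the 6 most like Nr3c1 were Ctdspl2 (0.857), Ttc3 (0.855), Rasa1 (0.821), Lin7c (0.809) and Nrip1 (0.804). For Tsc22d3, looked up after its values were seen, they were Sgk1 (0.957), Hspb1 (0.947), Errfi1 (0.942), Trib1 (0.933), Hspa8 (0.933) and Per1 (0.93), of which Hspb1 and Hspa8 encode heat shock proteins. No p is attached to these ranks.

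The wider pathway was read from lists of genes outside the 10. Of 32 other glucocorticoid-induced genes, 4 were higher and 1 lower under BAPN in ascending aorta, beside 3.44% and 2.91% of all genes. In descending aorta 5 were higher and 1 lower, beside 6.18% and 4.54%. The list medians were 0.049 and 0.13, beside -0.0051 and -0.00027 over all genes. Mertk, a receptor for the clearance of dying cells, was higher by 0.29 ± 0.046 and 0.38 ± 0.046 (edgeR adjusted p = 0.000181 and 4.23e-06), without overlap in either region. Map3k6, a stress-activated kinase, was higher by 0.38 ± 0.083 and 0.47 ± 0.089 (edgeR adjusted p = 0.00594 and 0.0011). Hif3a, a hypoxia-inducible factor subunit, was higher by 0.92 ± 0.20 in ascending aorta (edgeR adjusted p = 0.00504) and not called in descending aorta (0.55 ± 0.20, adjusted p = 0.091), and the difference between regions was itself not called (adjusted p = 0.877). Fam107a was higher by 0.59 ± 0.15 in descending aorta (edgeR adjusted p = 0.00907).

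Not every gene of that list moved with Fkbp5. Fbxo32, a ubiquitin ligase of muscle atrophy, was lower by 0.28 ± 0.075 on the log2 scale in ascending and by 0.32 ± 0.075 in descending aorta (edgeR adjusted p = 0.0218 and 0.00631). Its ascending call was lost without any 1 of ascending water 1, ascending BAPN 1 or ascending BAPN 3 (adjusted p 0.0506 to 0.0702), and the count of called genes was then 3. With the library set as a term 3 of the 32 were called in ascending aorta, 2 within the higher set, and 1, Mertk, in descending aorta within the lower set. The differences themselves stayed near those of the full fit: within the higher set Map3k6 was at 0.32 and Fbxo32 at -0.24 in ascending aorta, and within the lower set Map3k6 was at 0.41, Fam107a at 0.62 and Fbxo32 at -0.37 in descending aorta.

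**Figure D5:**
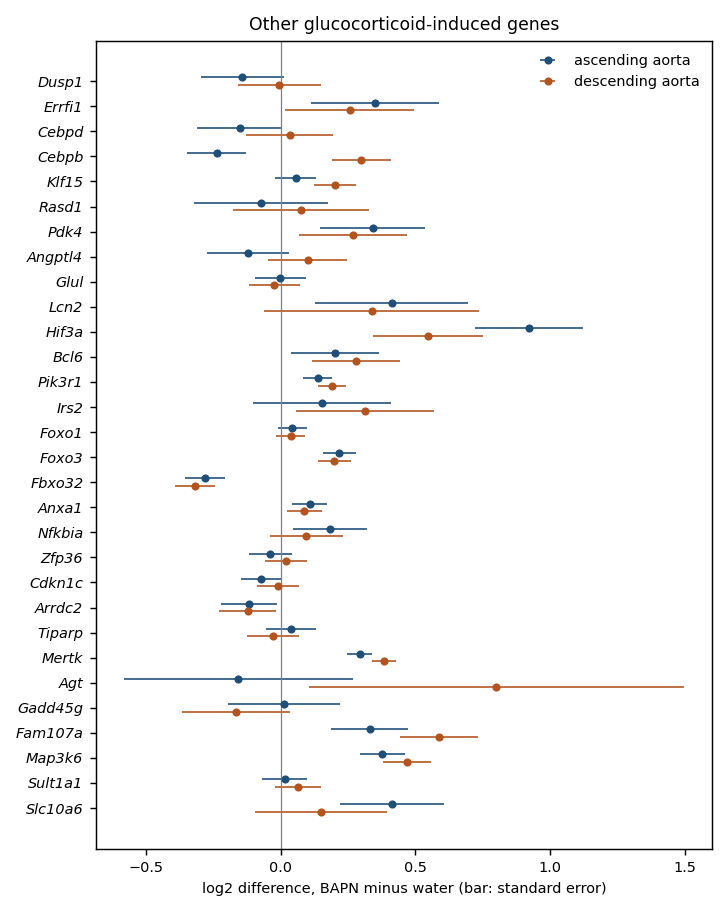
Log2 difference between BAPN and water (horizontal axis) with its standard error for 30 of the 32 other glucocorticoid-induced genes in ascending (blue) and descending (brown) aorta. The 2 genes whose standard error was over 1 in a comparison are not drawn. Mertk, Map3k6, Foxo3 and Hif3a are among the genes to the right of 0 in both regions, and Fbxo32 is among those to the left. Of all 32, drawn or not, 20 were positive and 12 negative in ascending aorta, and 24 positive and 7 negative in descending aorta.

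Genes that make, carry or assist the receptor's signal formed another list. Of 17 such genes, 2 were higher and 0 lower under BAPN in ascending aorta, beside 6.34% of all genes called, and 3 were higher and 1 lower in descending aorta, beside 10.7%. Hsd11b1, the enzyme that regenerates active hormone inside cells, was at 9.66 to 11.8 CPM under water and 11.9 to 15.8 CPM under BAPN in ascending aorta, a log2 difference of 0.43 ± 0.11 (edgeR adjusted p = 0.0126). That call was lost with the library set as a term (0.36, adjusted p = 0.121) and within the higher set (0.34, adjusted p = 0.211). Stip1, a chaperone adaptor, was higher by 0.20 ± 0.058 (edgeR adjusted p = 0.0407) and lost its call without any 1 of ascending water 1 to 4 or ascending BAPN 2 or 4 (0.057 to 0.13), and was at 0.12 within the higher set (adjusted p = 0.401). Of the coactivator genes higher in descending aorta, Ncoa1 lost its call without any 1 of 5 libraries, and Crebbp and Ncoa3 without any 1 of 15. Within the lower set Ncoa1, Crebbp and Ncoa3 were at 0.155, 0.171 and 0.142 and were not called (edgeR adjusted p = 0.359, 0.227 and 0.443).

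Between regions under water, 3 of the 17 were higher and 2 lower in descending aorta, beside 12.1% and 15.2% of all genes. Abcb1a, an efflux pump that exports steroids, was lower by 3.60 ± 0.29 on the log2 scale, from 8.95 ± 2.34 to 0.737 ± 0.313 CPM (SD, n = 5; edgeR adjusted p = 2.7e-10). Hsd11b2, the enzyme that inactivates the hormone, was lower by 1.503 ± 0.24 (edgeR adjusted p = 1.87e-05). Its level was low in both regions, at 2.99 ± 0.659 CPM in ascending and 1.06 ± 0.393 CPM in descending water (SD, n = 5). H6pd, which supplies the cofactor of Hsd11b1, was higher by 0.26 ± 0.041, and Ncoa3 by 0.31 ± 0.062 (edgeR adjusted p = 1.65e-05 and 0.00033), and both lost their call within the higher set (0.12 and 0.108). Among the other glucocorticoid-induced genes 2 of 32 were higher and 9 lower in descending aorta, the muscle ligase gene Trim63 among the latter, with 0 CPM in every descending library and 3.72 to 6.78 CPM in ascending water. The cardiomyocyte values above stand beside these counts.

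Inflammatory genes that the receptor is known to repress gave no call by treatment. Of 13, 9 were measured. By edgeR, 0 were higher or lower under BAPN in either region, beside 6.34% and 10.7% of all genes called. Below an unadjusted p of 0.05 were 0 and 2 of the 9 in ascending and descending aorta. Over all 15543 tested genes, 3137 and 3630 were below it. Under water, Vcam1 was lower in descending aorta by 0.90 ± 0.089 on the log2 scale and Icam1 higher by 0.40 ± 0.10 (edgeR adjusted p = 8.43e-09 and 0.00408), the latter not within the higher set (0.0655).

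Other inputs known to reach individual genes of the group were read in the same way. By treatment, 6.34% of all genes were called in ascending and 10.7% in descending aorta. Below an unadjusted p of 0.05 were 3137 and 3630 of the 15543 genes tested. Of 14 p53 target genes beside Cdkn1a, 0 were higher and 1 lower under BAPN in ascending aorta, and 0 in either direction in descending aorta, where 1 was below an unadjusted p of 0.05. The lower one was Eda2r, by 0.33 ± 0.087 on the log2 scale (edgeR adjusted p = 0.0223), a call lost without any 1 of ascending water 3, ascending BAPN 3 or ascending BAPN 4 (0.0612 to 0.0797). The Eda2r call was also lost with the library set as a term (-0.287, edgeR adjusted p = 0.139) and within the higher set (-0.281, adjusted p = 0.259). Between regions under water, 6 of these 14 genes were lower and 1 higher in descending aorta, beside 15.2% and 12.1% of all genes. Beside Mt1, 8 metal and oxidant response genes were measured. Of these, the zinc exporter gene Slc30a1 was lower by 0.29 ± 0.069 (edgeR adjusted p = 0.0113) and Gclc higher by 0.21 ± 0.063 (adjusted p = 0.0466) in ascending aorta, with 0 calls and 2 unadjusted in descending aorta. The Slc30a1 call was lost with the library set as a term, where the difference was -0.28 (adjusted p = 0.0594), and that of Gclc without any 1 of 13 libraries. Gclc was at 0.175 with the library set as a term and at 0.211 within the higher set (edgeR adjusted p = 0.239 and 0.214).

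For Ddit4, 10 genes of the ATF4 and mTORC1-restraint response gave 0 calls in ascending aorta (3 unadjusted) and 1 lower in descending aorta, Vldlr, by 0.20 ± 0.049 on the log2 scale (edgeR adjusted p = 0.00891). Vldlr lost its call within the lower set (-0.178, edgeR adjusted p = 0.216). Over all genes 6.34% were called in ascending and 10.7% in descending aorta. In ascending aorta 3137 of 15543 were below an unadjusted p of 0.05. Of 10 hypoxia genes, 2 were higher in ascending aorta, with Slc2a1 at 0.28 ± 0.059 and Adm at 0.36 ± 0.11 (edgeR adjusted p = 0.00396 and 0.0415), Adm losing its call without any 1 of 6 libraries (0.0532 to 0.126). Adm was at 0.26 with the library set as a term and at 0.15 within the higher set (adjusted p = 0.29 and 0.477). In descending aorta Egln3 was lower by 0.45 ± 0.10 and Slc2a1 higher by 0.19 ± 0.059 (edgeR adjusted p = 0.00464 and 0.0354), the latter lost without any 1 of 7 libraries (0.068 to 0.123).

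Of 10 measured close relatives of the 10 genes, 0 were called in ascending aorta (3 unadjusted) and 2 in descending aorta, beside 6.34% and 10.7% of all genes. Over all 15543 genes tested, 3137 were below an unadjusted p of 0.05 in ascending aorta. In descending aorta Klf13, a relative of Klf9, was higher by 0.18 ± 0.043 and Ddit4l, a relative of Ddit4, lower by 0.85 ± 0.25 (edgeR adjusted p = 0.00808 and 0.0265). The Ddit4l call was lost without any 1 of descending water 2 or 5 or descending BAPN 1, 2 or 3 (0.0512 to 0.0799), and both were lost with the library set as a term (0.14 with adjusted p = 0.0773 for Klf13 and -0.88 with 0.0595 for Ddit4l).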

How the data were processed

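RNA of 20 aortic libraries was measured by RNA-seq from NEBNext Ultra libraries, per the labels' protocols. The deposited values are raw counts per Ensembl gene, made by the authors with fastp, STAR 2.5 and HTSeq 0.6.1 on mm10, per the submitters' processing notes. Settings, strand use and annotation are not given in the sources used here, so symbols, exon lengths and coordinates come from GENCODE on GRCm38, where 54409 identifiers matched. Library totals were 15744725 to 23292294, and counts below 10 limit precision, so low genes were filtered with filterByExpr (minimum count 10, minimum total 15), leaving 15543 of 30946 detected genes. All 20 libraries entered 1 edgeR 4.0.16 quasi-likelihood fit (R 4.3.3, TMM factors, 16 residual degrees of freedom) on 4 groups, with Benjamini-Hochberg adjustment within each comparison and a threshold of 0.05. Log2 CPM for correlations used a prior count of 2. Permutation tests ran in Python 3.11.15. The scripts were tested on simulated data.

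Groups came from titles and treatment labels. Up to 4 called genes with the smallest p are named per list and comparison, plus the 6 genes most like Fkbp5 and Nr3c1. The genes, lists and tests were chosen with earlier results of these data known, so no list is independent evidence. Alternatives were other scaling and filters, DESeq2 1.42.0, limma-voom (limma 3.58.1), fits on fewer groups, replicate blocks, library sets and leaving out each library. A protein comparison that had been planned was not run, and promoter sequences of Nr3c1 and Zbtb16 were not used here. Of the genes the naming rule selects, 2 are not reported here.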

Additional observations from a re-analysis of the deposited data

Results flagged for a closer look

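Zbtb16 in ascending water 2, at 33.6 CPM, stood apart from the other 4 libraries of its group, which held 23.0 to 26.0 CPM. Its gap to the nearest library was 0.713 of the range of the group, above the limit of Dixon's test for 5 samples. It was 1 of 36 groups of 5 libraries examined over the 9 measured genes, and chance flags about 1 in 20 such groups. The descending water library of the same number was also the highest of its group for Zbtb16, at 35.8 CPM.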

How the results depend on the processing

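Fkbp5, Zbtb16 and Cdkn1a stayed higher under BAPN in both regions under every alternative run, from 0.83 to 1.04 for Fkbp5, 1.26 to 1.62 for Zbtb16 and 0.34 to 0.54 for Cdkn1a on the log2 scale. The choice of genes had this contrast in view, so the direction is no sign of stability. Cdkn1a was not called by treatment in descending aorta within the lower library set, where its log2 difference was 0.351. The measured genes called there were 2 (3 in the full fit), beside 218 higher and 212 lower of 14991 genes. Within the lower library set, 1 gene was called between regions under water (2 in the full fit), Tsc22d3 turned to 0.0289, and 1 other glucocorticoid-induced gene was called in descending aorta (6 in the full fit). In ascending aorta 5 of those genes were called, 3 with the library set as a term, 2 within the higher set and 3 to 5 when 1 library was left out. The causes were not tested, although the sets hold fewer libraries. Over all genes, calls in ascending aorta fell from 534 higher and 452 lower to 330 and 212 with the set as a term and to 270 and 213 within the higher set, and in descending aorta from 961 and 706 to 218 and 212 within the lower set. Regional calls under water went from 1885 higher and 2358 lower to 898 and 1639 in the higher and 1019 and 1582 in the lower set, and under BAPN from 2206 and 2420 to 1131 and 1624 with the set as a term. The interaction, with 0 calls, gave 11 higher and 30 lower without a filter, 16 lower without descending water 4 and 1 lower without descending BAPN 5. Fkbp5 and Psmd4 had r = 0.913 over the means of same-numbered libraries, an alternative added after the data were seen. Regional fits under BAPN and the interaction could not be fitted within 1 set. Low counts kept Mt2 out of the full fit.

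The labels give equal numbers no meaning, and same-numbered libraries of the 2 regions correlated at -0.0478 to 0.106 over all genes, over 0.1 in 3 of 10 pairs, so the numbers were not taken as pairing. As a hint from the data only, 6 of 10 ascending libraries correlated best with their own number, and libraries of the same number were each other's best match in 5 of 5 BAPN pairs and 1 of 5 water pairs. With the number as a replicate block, 2 and 3 of the 9 genes were called between regions under water and BAPN (the third was Tsc22d3, adjusted p = 0.0321), and 5 and 8 other glucocorticoid-induced genes under BAPN. With treatment and number as a replicate block, 3 and 4 were called between regions, Tsc22d3 among them (-0.452, edgeR adjusted p = 1.1e-07, under water and -0.503, 2.51e-08, under BAPN), and the interaction gave 4 higher and 16 lower over all genes and 0 of the 9.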
